A study of Mus musculus with 6 samples.

Results

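The 10 genes described here, Cldn5, Ocln, Slc2a1, Abcb1a, Pecam1, Cdh5, Emcn, Flt1, Kdr and Tek, are markers and working parts of the brain endothelium and of the blood-brain barrier. They were taken by symbol from a fixed list of names. All 10 were present among the 26264 gene symbols of the count tables and all 10 passed the filter on low counts, which kept 14739 genes. The tissue was the basolateral amygdala of male mice, a set of nuclei that receives cortical and thalamic input. The control group was unstressed and the stress group underwent chronic restraint stress, with 3 biological replicates in each. Libraries, 1 per replicate, were made from total RNA depleted of ribosomal RNA. The sources used here give no strain, no age, no length of the restraint and no time between its end and dissection. RNA came from dissected tissue and not from sorted vessels, so fewer endothelial cells and less RNA per endothelial cell cannot be told apart.

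The blood-brain barrier is formed by endothelial cells that are sealed to each other by tight junctions, carry few vesicles across, and take up nutrients and expel drugs through dedicated transporters. Claudin-5 and occludin are membrane proteins of the tight junction, GLUT1 (Slc2a1) carries glucose into the brain, and P-glycoprotein (Abcb1a) pumps foreign compounds back into the blood. PECAM-1, VE-cadherin (Cdh5) and endomucin (Emcn) are surface proteins that mark endothelium in most organs. VEGF receptors 1 and 2 (Flt1 and Kdr) and the angiopoietin receptor TIE2 (Tek) are receptor tyrosine kinases that govern vessel growth and stability.

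Promoters of 4 of the genes are shown because they span the range of the results: Emcn had the most negative fitted difference, Tek the only positive one, and Flt1 and Kdr are the pair of receptors for the same ligand family. RefSeq's table on build GRCm38.p6 held a promoter for 8 of the 10 genes, and held none for Pecam1 and Cdh5. The build differs from that of the count tables, so these coordinates apply to the sequences only. Each line gives the 250 bases before the annotated start, 5′ to 3′ on the strand of the gene, and capitals mark matches on either strand to the motifs searched.

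Emcn, chr3:137340828-137341077, plus strand: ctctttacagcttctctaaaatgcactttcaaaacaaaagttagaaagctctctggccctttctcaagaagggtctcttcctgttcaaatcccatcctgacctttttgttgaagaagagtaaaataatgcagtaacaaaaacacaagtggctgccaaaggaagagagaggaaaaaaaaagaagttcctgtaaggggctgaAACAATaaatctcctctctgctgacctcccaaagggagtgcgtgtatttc
Tek, chr4:94739039-94739288, plus strand: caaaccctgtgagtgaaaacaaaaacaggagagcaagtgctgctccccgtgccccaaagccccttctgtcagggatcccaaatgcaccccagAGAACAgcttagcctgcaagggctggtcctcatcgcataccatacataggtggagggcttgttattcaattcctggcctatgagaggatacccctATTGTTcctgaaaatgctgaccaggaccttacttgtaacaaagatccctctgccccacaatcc
Flt1, chr5:147726012-147726261, minus strand: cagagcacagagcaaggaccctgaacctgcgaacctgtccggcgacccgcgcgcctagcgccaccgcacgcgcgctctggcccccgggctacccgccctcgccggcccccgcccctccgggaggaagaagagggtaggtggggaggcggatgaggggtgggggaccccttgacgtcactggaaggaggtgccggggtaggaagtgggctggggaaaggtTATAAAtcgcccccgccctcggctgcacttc
Kdr, chr5:75978456-75978705, minus strand: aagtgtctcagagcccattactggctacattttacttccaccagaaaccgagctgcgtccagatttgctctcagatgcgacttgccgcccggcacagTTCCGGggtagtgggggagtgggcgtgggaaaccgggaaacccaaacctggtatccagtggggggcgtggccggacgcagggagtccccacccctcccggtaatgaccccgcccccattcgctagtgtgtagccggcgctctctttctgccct

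The SOX core AACAAT lay in the windows of 2 of the 8 genes, Emcn and Tek, and in 9.42% of all 32851 promoter windows of this length. The ETS core CCGGAA, the binding core of a factor family used by endothelial genes, lay in those of Kdr and Ocln and in 12% of all windows. The TATA box TATAAA lay in that of Flt1, beginning 31 bases before the start, and in 12.4% of all windows. The half-site of the glucocorticoid receptor, TGTTCT, lay in that of Tek and in 16.1% of all windows. The TCF/LEF core CTTTGA, read by Wnt signalling, lay in that of Abcb1a and in 13.8%. GC content differed widely among these promoters, from 40.4% (Abcb1a) and 40.8% (Emcn) to 70.4% (Flt1), beside a median of 52.4% over all windows. RefSeq's promoter for Abcb1a, unlike the others, held no start of a protein-coding GENCODE M21 transcript of its gene, which limits its GC content and motif match. Each match describes these letters only, and binding was not measured.

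The 6 libraries held 9859449 to 10233706 counts in genes. Across the series, 3 libraries stood apart by Ttr, the transthyretin gene that marks choroid plexus epithelium: it was at 2128, 3777 and 18.9 CPM (gene counts scaled by library size) in controls 1 to 3 and at 2.87, 5553 and 8.34 CPM in stress 1 to 3. Stress 1 was low in striatal and central amygdala markers, with a mean level of -2.52 on the log2 scale relative to the control mean, against -0.51 and -0.50 in stress 2 and 3. Results that move with these libraries are given with those values beside them. Defining markers of brain endothelium were present in every library, at 114 to 160 counts for Cldn5, 121 to 179 for Pecam1 and 58 to 95 for Cdh5.

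Levels between genes were compared per length, as CPM per kb of merged exons of the GENCODE M21 gene models. The order was led by barrier genes (the plot of levels per length shows all 10). Slc2a1 was highest at 20.6 ± 2.73 CPM per kb (SD over 6 libraries), followed by Cldn5 at 9.84 ± 1.23 and Abcb1a at 4.82 ± 0.814. The ranges of Slc2a1, Cldn5 and Abcb1a did not overlap. Slc2a1 is also expressed by other brain cells, so its level is not that of endothelium alone. Below them came Flt1 at 3.38 ± 0.586, Ocln at 2.99 ± 0.886, Tek at 2.93 ± 0.336 and Pecam1 at 2.41 ± 0.377. Cdh5 at 1.81 ± 0.294, Kdr at 1.67 ± 0.246 and Emcn at 1.15 ± 0.213 were lowest. From Abcb1a downward the ranges of neighbours overlapped. Abcb1a was above Flt1, Tek above Pecam1, Pecam1 above Cdh5 and Kdr above Emcn in 6 of 6 libraries. Flt1 was above Ocln in 4 of 6 libraries, and Ocln above Tek and Cdh5 above Kdr in 3 of 6, so those neighbours have no settled order. Each gene has 1 length for all 6 libraries, so agreement between libraries does not test the gene model. The merged exons of Emcn hold 5409 bases, while its protein-coding transcripts hold 2687 distinct stretches of 100 bases. For Pecam1 these numbers are 6228 and 4345, for Kdr 9030 and 5825 and for Tek 4712 and 4800. The order of genes close in level therefore depends on the length used.

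**Figure D1:**
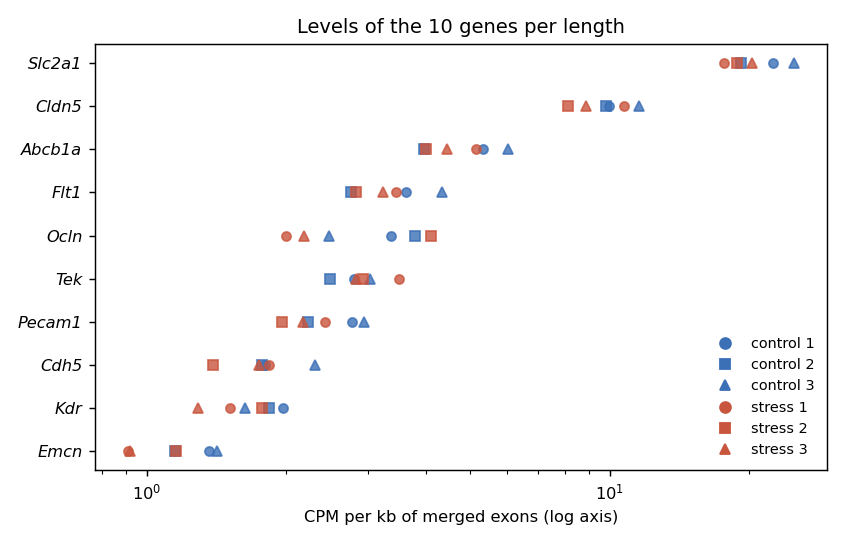
Level of each of the 10 genes in CPM per kb of merged exons (log axis), 1 point per library, controls in blue and stress libraries in red, with the marker shape giving the replicate number. Slc2a1 and Cldn5 stand clear of the others, at no less than 17.6 and 8.11 CPM per kb, and the ranges of neighbours overlap from Abcb1a downward.

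The comparison of stress with control asked whether chronic restraint is accompanied by a different level of barrier and endothelial transcripts. Of the 10 genes, 9 had a lower mean under stress, and Tek had a higher one. No gene passed the threshold of 0.05 for the adjusted p: edgeR (quasi-likelihood F test) called 0 of the 10 and 0 of all 14739 genes tested (0%), and gave an adjusted p of 0.997 for each of the 10. The smallest unadjusted p was 0.0535 for Emcn and 0.0542 for Slc2a1, so 0 of 10 lay under 0.05 in either direction, against 3.29% of all genes (1.99% lower under stress and 1.3% higher). The median log2 fold change of the 10 genes, stress minus control, was -0.23, and that of all tested genes was -0.0044, with 51.6% of all tested genes below 0. For 0 of 10 genes did the groups separate without overlap, against 4.48% of all genes that separated with stress lower and 3.8% with stress higher. The labels do not say whether a replicate is 1 animal or how the animals were housed, and p-values measure only the spread between these libraries.

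**Figure D2:**
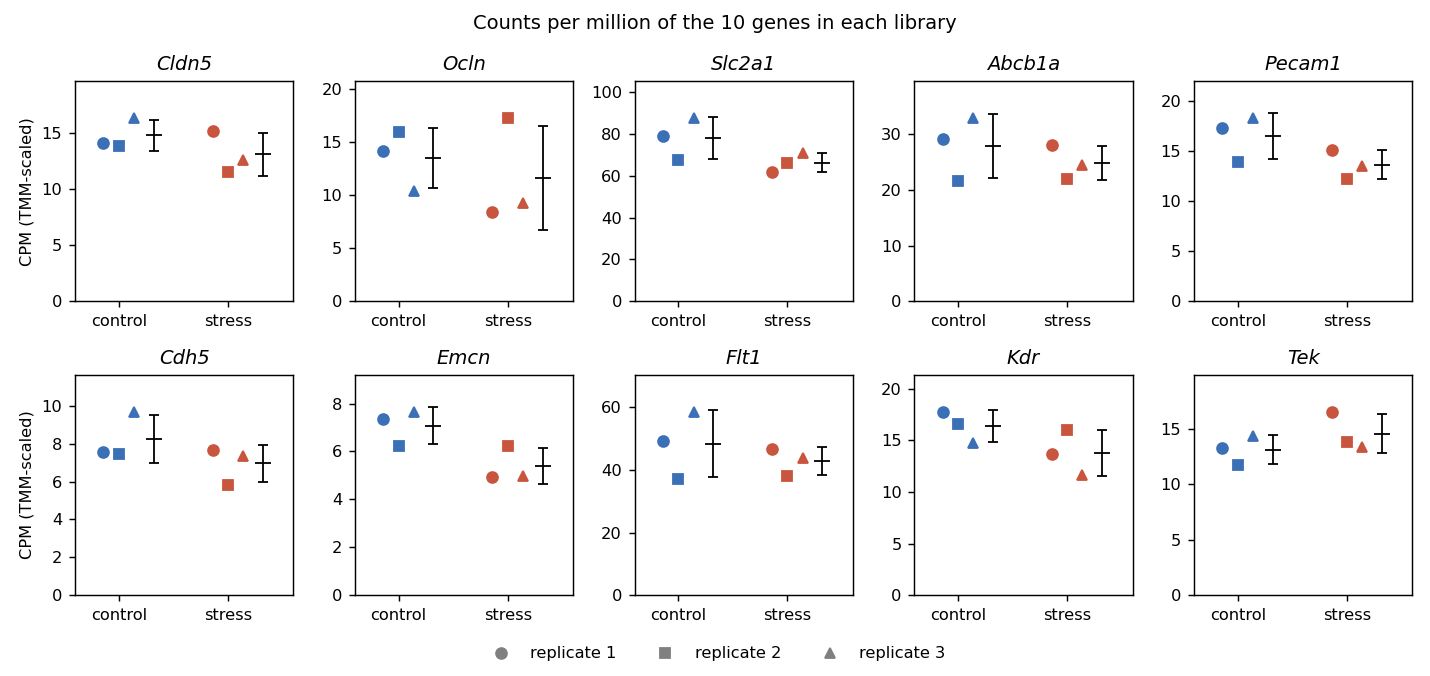
CPM of each gene in each library (points, shape by replicate number), with the mean and SD of each group of 3 as bars to the right of the points. The groups overlap in all 10 panels, and the vertical axes start at 0 and differ between panels.

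Among the tight junction genes, Cldn5 was at 14.1, 13.9 and 16.4 CPM in controls 1 to 3 and at 15.2, 11.5 and 12.6 CPM in stress 1 to 3. Stress 1 lay above 2 of the 3 controls, and stress 2 and 3 lay below all of them. The means were 14.8 ± 1.37 and 13.1 ± 1.90 CPM (SD, n = 3 each). The log2 fold change was -0.17 ± 0.14 (SE), with a 95% interval from -0.49 to 0.14. In other terms the stress mean was 88.6% of the control mean, and the fitted interval runs from 71.2% to 110.3% of control. The spread of Cldn5 in controls, an SD of 1.37 CPM, was close to the 1.21 CPM that counting alone gives at this depth.

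Ocln was the most variable of the genes. It was at 14.2, 16.0 and 10.4 CPM in controls and at 8.42, 17.3 and 9.24 CPM under stress. Stress 2 was the highest of all 6 libraries and stress 1 the lowest, 2.06-fold apart. The SD under stress was 4.92 CPM, where counting alone gives 1.08. The log2 fold change was -0.22 ± 0.31, with an interval from -0.95 to 0.51, the widest among the 10 genes. Without stress 2 it was -0.61 ± 0.20, with an unadjusted p under 0.05, and without stress 1 it was -0.03 ± 0.31. The 3 libraries with Ocln above 14 CPM, controls 1 and 2 and stress 2, are those with Ttr above 2000 CPM. Occludin is also part of the tight junctions of epithelia such as the choroid plexus. With the choroid plexus marker level as a covariate, an alternative chosen with earlier results of these data known, the Ocln log2 fold change was 0.0057 ± 0.12. It was 0.0052 ± 0.38 without control 1 and stress 1.

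**Figure D3:**
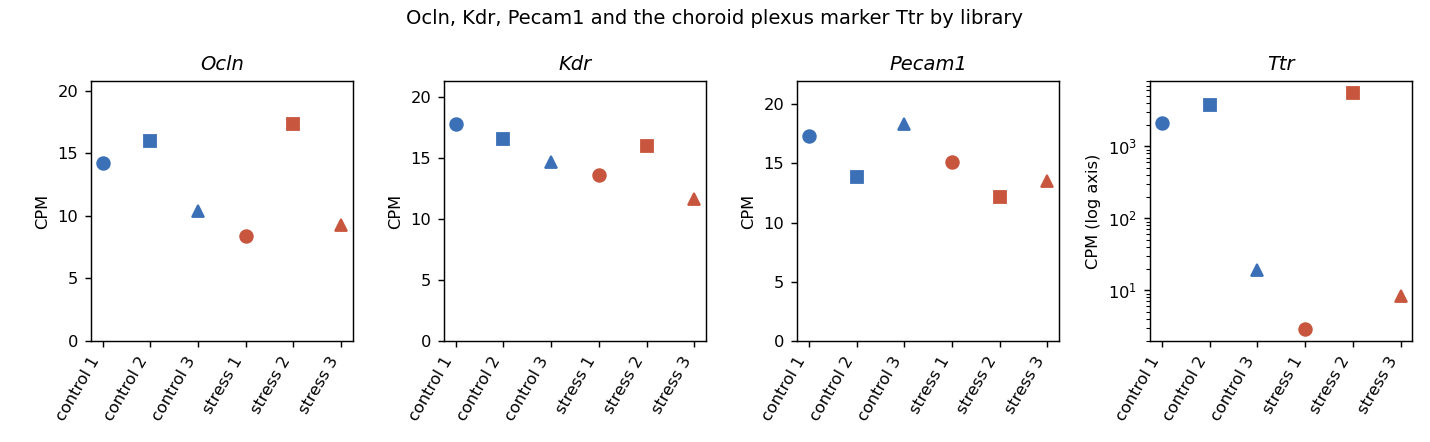
CPM of Ocln, Kdr, Pecam1 and the choroid plexus marker Ttr (log axis for Ttr) in each library, controls in blue and stress in red. Ocln is high in the same 3 libraries as Ttr, at 14.2, 16.0 and 17.3 CPM, while Pecam1 is highest in control 3, at 18.3 CPM, where Ttr is at 18.9 CPM.

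Among the transporters, Slc2a1 was at 79.0, 67.5 and 87.8 CPM in controls and at 61.8, 66.2 and 71.1 CPM under stress. Only stress 3 exceeded a control, control 2, so the overlap between groups was small. The means were 78.1 ± 10.2 and 66.4 ± 4.66 CPM, a log2 fold change of -0.23 ± 0.10 with an interval from -0.47 to 0.0053. It rests on 4325 counts over the libraries, the most of the 10 genes, and its SD in controls, 10.2 CPM, was well above the 2.79 CPM expected from counting. The stress mean was 85.0% of the control mean.

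Abcb1a was at 29.1, 21.7 and 33.0 CPM in controls and at 28.1, 22.0 and 24.4 CPM under stress. Control 2 was the lowest library and control 3 the highest, so the controls alone spanned the whole range. The log2 fold change was -0.17 ± 0.16 (interval -0.55 to 0.21), and it was -0.03 without control 3, -0.08 without stress 2 and -0.31 without control 2. Its paralog Abcb1b, the other mouse P-glycoprotein gene, was at 4.64 ± 0.356 CPM in the controls and at 5.29 ± 0.896 CPM in the stress group (log2 fold change 0.19 ± 0.19). Of the stretches of 100 bases in Abcb1a transcripts, 7.72% also occur in transcripts of Abcb1b or Abcb4, and 8.52% of those of Abcb1b in Abcb1a. Reads that lie wholly in those stretches may have no unique place, and reads aligned more than once were left out of the counts. The share of reads affected was not measured. The log2 ratio of Abcb1a to Abcb1b was 2.68, 2.06 and 2.82 in controls and 2.16, 2.00 and 2.43 under stress, and the groups overlapped. No such sense-strand sharing was found for the other 9 genes. On the opposite strand, Gm42686 overlaps 553 of the 5480 exon bases of Abcb1a, and Gm12868 overlaps 105 of the 3506 of Slc2a1. The strand setting of the counting is not stated, so any effect on these counts is unknown.

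Among the surface markers of endothelium, Pecam1, an adhesion molecule of the cell border, was at 17.3, 13.9 and 18.3 CPM in controls and at 15.1, 12.2 and 13.5 CPM under stress. Control 2 lay among the stress libraries, and the other controls lay above all of them. The log2 fold change was -0.28 ± 0.14 (interval -0.60 to 0.04). Cdh5, the cadherin of endothelial adherens junctions, was at 7.55, 7.47 and 9.71 CPM in controls and at 7.70, 5.84 and 7.35 CPM under stress, with stress 1 above 2 of the 3 controls and control 3 alone standing high. Its log2 fold change was -0.24 ± 0.18 (interval -0.65 to 0.16).

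Emcn, a mucin-like protein of capillary and venous endothelium, had the most negative difference of the 10 genes. It was at 7.35, 6.21 and 7.66 CPM in controls and at 4.93, 6.24 and 4.97 CPM under stress. Stress 1 and 3 lay below every control, and stress 2 just above control 2. The means were 7.08 ± 0.768 and 5.38 ± 0.749 CPM, a log2 fold change of -0.39 ± 0.17 with an interval from -0.80 to 0.0076. The gene has only 373 counts over the 6 libraries, and its SDs are near those of counting alone, 0.839 CPM in the controls and at 0.737 CPM under stress.

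The receptor genes did not share a direction. Flt1, a VEGF receptor that also exists as a soluble decoy form, was at 49.1, 37.2 and 58.7 CPM in controls and at 46.7, 38.2 and 43.7 CPM under stress. Control 2 was the lowest and control 3 the highest library. The difference was -0.17 ± 0.17 on the log2 scale (interval -0.56 to 0.22), and -0.01 ± 0.14 without control 3. Counts per gene do not separate the soluble form from the membrane form.

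Kdr, the main signalling receptor for VEGF-A, was at 17.8, 16.6 and 14.7 CPM in controls and at 13.7, 16.0 and 11.6 CPM under stress. Within each group its order followed Ttr only in part: the libraries high in Ttr were above the others of their group, but control 1 was above control 2. The log2 fold change was -0.25 ± 0.14 (interval -0.58 to 0.08), and -0.16 ± 0.12 with the choroid plexus level as a covariate. The log2 ratio of Flt1 to Kdr was 1.45, 1.16 and 1.98 in controls and 1.76, 1.24 and 1.89 under stress, with overlapping groups and the lowest value of each group in replicate 2.

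Tek was the only gene of the 10 with a higher mean under stress. It was at 13.2, 11.7 and 14.3 CPM in controls and at 16.5, 13.8 and 13.3 CPM under stress. Stress 1 was the highest library and control 2 the lowest, and control 3 lay above stress 2 and 3. Its log2 fold change was 0.15 ± 0.13 (interval -0.15 to 0.45), and 0.05 ± 0.13 without stress 1, so the value rests largely on that library and neither direction passed. The log2 ratio of Tek to Pecam1 was -0.38, -0.24 and -0.35 in controls and 0.13, 0.18 and -0.02 under stress, and the groups did not overlap. This ratio was singled out after its values were seen, and 19.5% of all genes had a ratio to Pecam1 that separated in the same direction, with 0.204% in the opposite one, so the separation is near the background.

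**Figure D4:**
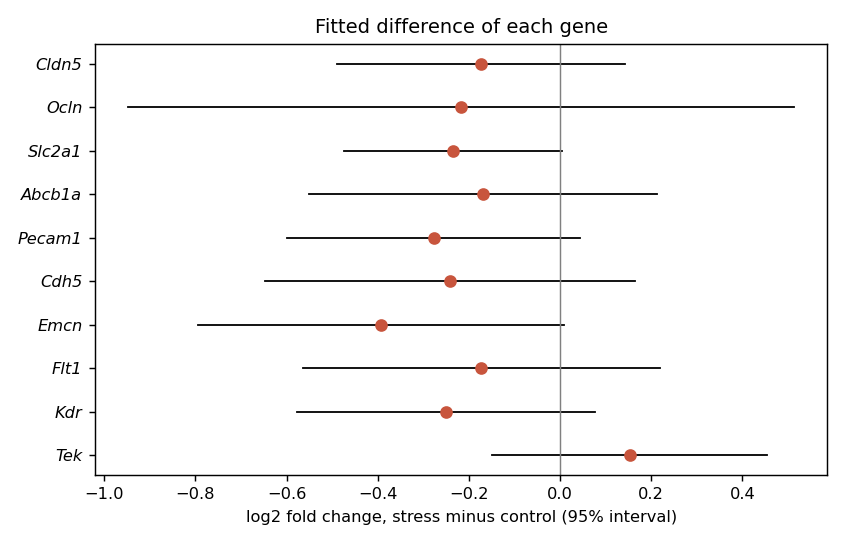
Fitted log2 fold change of each gene, stress minus control (points), with its 95% interval from edgeR's quasi-likelihood fit (lines). All 10 intervals include 0, those of Slc2a1 and Emcn end just above it, at 0.0053 and 0.0076, and that of Ocln is the widest.

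The genes varied together across libraries only in part. Control 3 was the highest library for 7 of the 10 genes, and control 1, stress 1 and stress 2 for 1 each. The lowest library was control 2, stress 1 or stress 2 for 3 genes each and stress 3 for 1. Relative to the control mean, the mean log2 level of the 10 genes was 0.03, -0.14 and 0.10 in controls and -0.15, -0.19 and -0.25 under stress. Every stress library lay below every control, but control 2 and stress 1 nearly touched. Such a separation was not particular to the 10 genes. Of the other gene lists described below, the mean levels of 4 separated the same way. These were other endothelial genes and smooth muscle, astrocyte and striatal markers. For smooth muscle the lowest control was at -0.15 and the highest stress library at -0.24, and for astrocytes at -0.049 and -0.053. In all remaining lists the groups overlapped. As a description over 6 libraries that share their scaling, the Pearson correlation of a gene with the mean of the other 9 was 0.94 for Pecam1, 0.84 for Abcb1a and 0.82 for Flt1. It was 0.74 for Slc2a1, 0.73 for Cldn5, 0.71 for Cdh5 and 0.68 for Emcn. Kdr (0.21), Tek (0.03) and Ocln (-0.29) did not follow the rest.

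Barrier genes and identity genes were close in size. The mean level of Cldn5, Ocln, Slc2a1 and Abcb1a differed by -0.21 on the log2 scale, stress minus control, and that of the 6 surface marker and receptor genes by -0.19. The log2 ratio of the first group to the second was 0.79, 0.87 and 0.72 in controls and 0.68, 0.88 and 0.78 under stress. The groups overlapped, and the means of 0.80 ± 0.08 and 0.78 ± 0.10 differed by less than the SD of either group.

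The genes most like the mean profile of the 10, by Pearson correlation of log2 CPM over the 6 libraries among genes with a mean of at least 1 CPM, were Kif26b (0.99), Notch4 (0.99), Esr1 (0.99), Tsc1 (0.98), Camta1 (0.98), Ppp1r18 (0.98), Nelfa (0.98), Acsf2 (0.97), Zdhhc18 (0.97) and Zfpm1 (0.97). Notch4 encodes a Notch receptor of endothelial cells, and none of these genes is on a list used here. With 6 libraries and 14611 genes compared, high values are reached by many genes: 2102 of them had a correlation over 0.5. The median correlation was 0.47 for 35 other endothelial genes, 0.61 for 10 pericyte markers, 0.69 for 13 astrocyte markers and 0.69 for 4 red blood cell measurements. It was 0.01 for all genes and -0.14 for 12 choroid plexus markers. Other barrier and vessel lists were lower than the endothelial one: 0.09 for junctions, 0.01 for permeability, 0.14 for adherens junctions with basement membrane and 0.34 for transport. For arteries, capillaries and veins it was 0.24, 0.29 and 0.35, for VEGF and angiopoietin 0.26 and for Wnt 0.30.

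Other genes of the barrier and of vessels came from 10 lists, on junctions, transport, endothelial identity, VEGF and angiopoietin, Wnt, permeability, adherens junctions with basement membrane, and arteries, capillaries and veins. Together they held 173 genes beside the 10, of which 160 were tested. Of these, 107 (66.9%) had a lower and 53 a higher fitted level under stress. Their median log2 fold change was -0.09, beside -0.0044 for all genes. In the account of the lists, signed values with ± and no unit are log2 fold changes, stress minus control, with their SE. None passed the threshold (0 of 160, edgeR's quasi-likelihood test). At an unadjusted p under 0.05 there were 8 lower (5%) and 1 higher (0.625%), against 1.99% and 1.3% of all genes. The groups separated with stress lower in 13 (8.12%) and with stress higher in 4 (2.5%), against 4.48% and 3.8% of all genes. The 10 genes and these lists come from the same libraries, so they share any difference in vessel content.

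Of 18 tested junction genes other than Cldn5 and Ocln, 13 were below 0 and 5 above (median -0.08, 0 called). The smallest unadjusted p belonged to Cldn11, a claudin of myelin, at 74.5 ± 20.1 CPM in the controls and at 57.5 ± 13.6 CPM under stress, and to the scaffold genes Magi1 (log2 fold change 0.12 ± 0.09) and Afdn (0.09 ± 0.08). Some junction genes ran with Ttr as Ocln did, and they are named after their values were seen. Cgnl1, which encodes paracingulin, was at 38.7, 54.8 and 20.1 CPM in the controls and at 19.0, 59.9 and 17.4 CPM under stress. F11r, the junctional adhesion molecule A, was at 8.35, 8.15 and 5.72 CPM in the controls and at 4.83, 9.67 and 3.67 CPM under stress. Tjp1, which encodes the scaffold ZO-1 that binds claudin-5 and occludin, was at 160.2 ± 6.58 and 153.4 ± 6.58 CPM, a log2 fold change of -0.06 ± 0.06.

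Of 23 tested transport genes other than Slc2a1 and Abcb1a, 14 were below 0 and 9 above (median -0.04, 0 called). Abcg2, the other main drug efflux pump of the barrier, was at 16.8, 17.7 and 24.0 CPM in the controls and at 27.2, 23.4 and 22.8 CPM under stress. Control 3 lay among the stress libraries, and the log2 fold change of 0.33 ± 0.15 (interval -0.02 to 0.67) was opposite in sign to that of Abcb1a. The organic anion transporter Slco1a4 was at -0.13 ± 0.07 and the lipid transporter Mfsd2a, which limits vesicle transport across the endothelium, at -0.18 ± 0.12.

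Of 35 tested genes of endothelial identity, 27 were below 0 and 8 above (median -0.12, 0 called), beside 51.6% of all genes below 0. In this list 5 of 35 separated with stress lower and 1 with stress higher, against 4.48% and 3.8% of all genes. The 1 that separated higher was Nos3, the endothelial nitric oxide synthase, at 0.26 ± 0.16, named after its values were seen. Adgrl4, an adhesion receptor of endothelium, was at 25.9, 20.5 and 29.4 CPM in the controls and at 17.9, 17.8 and 18.3 CPM under stress. All stress libraries lay below all controls (-0.49 ± 0.13, unadjusted p = 0.00654). Sox18, a transcription factor of vessel development, was at 2.06 ± 0.317 and 0.979 ± 0.400 CPM (-1.06 ± 0.35) and also separated. Mcam, which also marks pericytes and smooth muscle, was at -0.42 ± 0.175 with overlapping groups. The adjusted p was 0.997 for each of these 3 genes (edgeR).

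The ligands and partners of the receptors gave small or imprecise differences. Of 17 tested, 11 were below 0 and 6 above (median -0.06, 0 called). The hypoxia factor Epas1, which is high in endothelium, was at 75.8, 65.0 and 73.5 CPM in the controls and at 57.6, 63.5 and 60.8 CPM under stress, with no overlap (-0.24 ± 0.08). Flt4, the third VEGF receptor, was at 3.10 ± 1.28 and 1.58 ± 0.410 CPM (-0.96 ± 0.39), and its ligand gene Vegfd at 2.10 ± 0.964 and 3.92 ± 1.91 CPM (0.90 ± 0.44), both with overlapping groups. For their roles, and with their values seen, the main ligands are also given: Vegfa was at -0.14 ± 0.08, and Angpt1, which activates TIE2, at 12.2 ± 3.07 and 19.3 ± 8.39 CPM (0.66 ± 0.34). The high stress mean of Angpt1 came largely from stress 1, at 28.9 CPM, the library that also had the highest Tek.

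The Wnt list, the pathway that maintains barrier properties, had 14 of 20 tested genes below 0 and 6 above (median -0.13, 0 called). Sox17 was at 3.75 ± 0.510 and 2.79 ± 0.161 CPM (-0.42 ± 0.21, no overlap), the ligand gene Wnt7a at 0.29 ± 0.15 and Lef1 at -0.77 ± 0.43. Among 13 tested permeability and adhesion genes, 8 were below 0 and 5 above (median -0.08, 0 called). Apln, which encodes a peptide of sprouting endothelium, was at 14.6, 13.6 and 14.0 CPM in the controls and at 10.1, 9.17 and 12.1 CPM under stress, with every stress library below every control (-0.43 ± 0.13, unadjusted p = 0.0118). Mmp9, a matrix protease, was at 0.994, 0.776 and 0.511 CPM in the controls and at 1.33, 1.11 and 1.69 CPM under stress, all higher (0.84 ± 0.37), on 5 to 17 counts per library. The caveolar gene Cavin1 was at -0.40 ± 0.23 with overlapping groups. Plvap, a protein of fenestrated endothelium, was at 3.05 ± 0.454 and 3.67 ± 0.560 CPM. The leukocyte adhesion genes Sele and Selp had at most 3 counts in any library and were not tested.

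By vessel segment, the arterial list had 6 genes below and 6 above 0 (median -0.04), the capillary list 7 below and 3 above (median -0.13) and the venous list 10 below and 1 above (median -0.20), with 0 called in each. The arterial genes above 0 include Stmn2 (0.24 ± 0.11), which is also on the list of neuronal markers used here. The arterial counts are therefore not those of vessels alone. Efnb2, an arterial ligand that neurons also express, was at 47.4, 46.3 and 46.6 CPM in the controls and at 68.8, 52.4 and 57.1 CPM under stress, all higher (0.35 ± 0.10). The Notch ligand Jag1, at -0.35 ± 0.15, and the elastic fibre gene Fbln5, at -0.52 ± 0.23, separated with stress lower. In the venous list the interleukin-1 receptor gene Il1r1 was at -0.47 ± 0.27 and Icam1 at -0.50 ± 0.34, and in the capillary list Hmcn1 was at -0.17 ± 0.11, with overlapping groups for these 3. The adherens junction and basement membrane list had 10 below and 9 above 0 (median -0.03), with the perlecan gene Hspg2 at -0.63 ± 0.22, the nidogen gene Nid1 at -0.37 ± 0.24 and the laminin gene Lamc1 at -0.09 ± 0.07. A difference between segments was not tested.

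Markers of other cells of the vessel wall and its surroundings were also lower on the whole in the stress libraries, and their part in the results above was not tested. Of 10 pericyte markers, 7 were below 0 (median -0.07, summed level 248 to 271 CPM in controls, against 240.3 to 252.8 CPM under stress). Pdgfrb, the defining pericyte receptor, was at 22.9 ± 2.85 and 21.2 ± 1.52 CPM. The pericyte markers with the smallest unadjusted p were Vtn (-0.18 ± 0.08), Abcc9 (-0.13 ± 0.10) and Rgs5 (-0.08 ± 0.06). Vtn and Abcc9 separated with stress lower, and the groups overlapped for Rgs5. Of 6 tested smooth muscle markers, 6 were below 0 (median -0.38, sums 54.5 to 55.3 and 40.1 to 54.1 CPM), with Acta2 at 7.36 ± 0.204 and 5.46 ± 1.24 CPM, and Cnn1, which was not tested, at 0 in at least 1 library. Of 12 meningeal fibroblast markers, 10 were below 0 (median -0.53, sums 213.7 to 261.8 and 170.3 to 264.0 CPM). At an unadjusted p under 0.05 (edgeR's quasi-likelihood test) 5 of 12 were lower and 0 higher, against 1.99% and 1.3% of all genes. The groups separated with stress lower in 4 of 12, against 4.48% of all genes. Col1a1 was highest in control 3 at 8.28 CPM, against 3.58 and 3.88 in the other controls. Under stress it was at 2.46, 2.12 and 3.08 CPM, with no overlap.

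The red blood cell genes Hba-a1 and Hba-a2 had identical counts in every library and were taken as 1 measurement. Of the 4 measurements tested, 4 were below 0 (median -0.52). Their summed level was 44.6 to 84.5 CPM in controls, against 41.9 to 45.2 CPM under stress, with control 3 highest, as it was for 7 of the 10 endothelial genes. Of 13 astrocyte markers, 12 were below 0 (median -0.17, sums 6369 to 6978 and 5962 to 6841 CPM), and the end-foot water channel Aqp4 was at 133.8 ± 13.4 and 114.3 ± 15.5 CPM. Of 10 microglia markers, 8 were below 0 (median -0.03), and of 10 neuronal markers 3 (median 0.06). The oligodendrocyte, striatal and ependymal lists had medians further below 0 than the -0.23 of the 10 endothelial genes. So did the smooth muscle, meningeal and red blood cell lists and, by little, the choroid plexus list. Of 12 oligodendrocyte and myelin markers, 12 were below 0 (median -0.38, sums 2295 to 3633 CPM in controls, against 1793 to 2577 CPM under stress). Of 16 striatal and central amygdala markers, 16 were below 0 (median -0.92), with Isl1 at 0 in at least 1 library. The groups separated with stress lower in 4 of these 16, against 4.48% of all genes. That number was 4 of 12 meningeal, 2 of 12 oligodendrocyte and 2 of 10 pericyte markers. It was 1 each for the smooth muscle, astrocyte, microglia and neuronal lists, and 0 for the ependymal and choroid plexus lists. In the red blood cell list it was 2 of 5 genes, Hba-a1 and Hba-a2, which are 1 measurement here. Of 6 ependymal markers, 6 were below 0 (median -0.55). Of 12 choroid plexus markers, 11 were below 0 (median -0.24), with sums from 46.7 to 4371 CPM in controls and from 18.6 to 6252 CPM under stress, and Steap1 at 0 in at least 1 library.

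**Figure D5:**
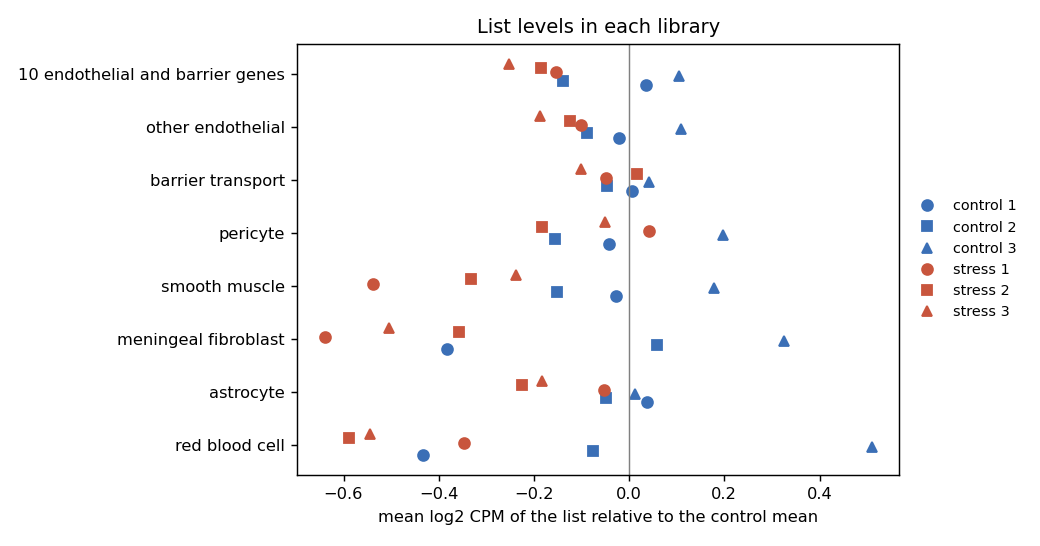
Mean log2 CPM of 8 gene lists in each library, relative to the control mean of the same list (1 point per library, colour by group, shape by replicate number). The red blood cell row counts Hba-a1 and Hba-a2, which have identical counts, as 2 genes. For the 10 endothelial and barrier genes the stress libraries lie at -0.15 to -0.25 and the controls at -0.14 to 0.10, and control 3 is the highest library for all of these lists but the astrocyte one.

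The size of the differences rested on single libraries more than their direction did. Without control 3 the median of the 10 genes was -0.13, and without control 2 it was -0.31. Without control 2, 5 of the 10 (Slc2a1, Pecam1, Emcn, Flt1 and Abcb1a) had an unadjusted p under 0.05 (edgeR's quasi-likelihood test). In that fit 466 of all 14899 genes did. The number among the 10 was 0 without control 1 or control 3, 1 without stress 1 or stress 3, and 3 without stress 2. Against control 3 alone, without the 3 libraries high in Ttr, the median was -0.34. With the choroid plexus level as a covariate it was -0.28, with 8 of 10 below 0. In that fit 4 of 10 (Slc2a1, Pecam1, Cdh5 and Flt1) had an unadjusted p under 0.05, beside 504 of all 14739 genes. Leaving out 1 library also moved Cldn5 between -0.29 (without stress 1) and -0.08 (without stress 2), Cdh5 between -0.32 (without stress 1) and -0.11 (without control 3), Slc2a1 between -0.32 (without control 2) and -0.14 (without control 3), and Kdr between -0.37 (without stress 2) and -0.14 (without stress 3). Pecam1 stayed between -0.38 and -0.20, and Emcn between -0.51 and -0.33. In none of these fits did a gene of the 10 pass after adjustment over all genes.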

How the data were processed

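The authors deposited raw read counts per gene symbol, 1 table per library, not normalized and not pooled. Build mm39 is named in the submitters' processing notes, as are HTSeq 0.13.5, STAR 2.7.7a, edgeR 3.42.4 and FastQC 0.12.1, without roles. Annotation and strand setting were not stated in the sources used. Rows for reads assigned to no gene (53.0 to 57.4% of reads), aligned more than once (6.97 to 8.16%) or ambiguous (0.162 to 0.194%) were left out. Counts in genes numbered 9859449 to 10233706 per library.

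Here, edgeR 4.0.16 in R 4.3.3 tested 14739 genes (filterByExpr, minimum count 10, minimum total 15; TMM factors 0.983 to 1.02) with the robust quasi-likelihood F test, all 6 libraries, Benjamini-Hochberg adjustment over all genes and a threshold of 0.05. The SE was taken from the fold change and the root of the F statistic. CPM use TMM-scaled library sizes; log2 levels use a prior count of 2. The test was also run on simulated counts with known differences, with levels and spread taken from these data. It called 52 of 150 genes changed 1.5-fold and 108 of 150 changed 2-fold, so small differences are often missed. Alternatives covered scaling, filters, tests (limma 3.58.1, DESeq2 1.42.0), the replicate block, left-out libraries and a choroid plexus covariate. The genes, lists and alternatives were chosen with earlier results of these data known. Named genes are the 10, up to 3 per list by smallest unadjusted p, defining markers of other cells, the 10 most like the mean profile, and others said to be chosen after their values were seen. Merged exon lengths and shared stretches come from GENCODE M21, promoters from RefSeq (GRCm38.p6).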

Additional observations from a re-analysis of the deposited data

How the results depend on the processing

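Over 20 alternatives, 0 of the 10 genes passed after adjustment in any, and 8 or 9 of the 10 were below 0. At an unadjusted p under 0.05 (edgeR's quasi-likelihood test), Slc2a1 passed with library size alone, with no filter and with the replicate block. Emcn passed without robust estimation. In those fits 490 of 14739, 623 of 20916, 407 of 14739 and 501 of 14739 genes did. With the other scalings, filters and tests 0 of the 10 did. The number of genes called over all genes was 4 with edgeR's likelihood ratio test, 2 with the DESeq2 Wald test and 0 to 1 with 1 library left out. The median of the 10 genes ranged from -0.31 to -0.13 with 1 library left out (-0.13 without control 3) and was -0.34 without control 1, control 2 and stress 2, where the single control left is assumed to vary like the stress libraries. Ocln turned above 0 with the choroid plexus covariate (0.0057) and without control 1 and stress 1 (0.0052), the 2 fits with 8 genes below 0. The cause was not tested. The other 9 genes kept their sign in all 20. Same-numbered libraries did not deviate together in every pair (correlations -0.32, 0.53 and 0.28 for numbers 1 to 3), and not every library correlated best with its own number. The labels state no pairing, and so few correlations cannot decide whether the numbers pair the replicates. With the replicate block 0 genes were called, 9 of the 10 were below 0 and their median was -0.24. Depth limits Emcn and Cdh5 most, with 373 and 455 counts in all.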
